A study of Mus musculus with 16 samples.

Results

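MALT1-deficient CD4+ T cells of C57BL/6 mice that had been given MALT1 isoform B were compared with the same cells given a mock vector, both after 2.5 h of stimulation through CD3 and CD28. The comparison uses 8 of the 16 arrays of the series, chosen by the sample titles: 4 with isoform B and 4 with mock, 1 of each from every one of 4 mice, so that arrays with the same replicate number form a pair. Every array carries the MALT1 deficiency, so the comparison shows how stimulated deficient cells differ with and without added isoform B. The series holds no cells with their own MALT1, so a return to normal levels cannot be read from it. The other 8 arrays hold MALT1-deficient cells given isoform A, 4 stimulated in the same way and 4 unstimulated, and they are used here to set isoform A beside isoform B and to estimate the spread. The labels' protocols describe no unstimulated isoform B or mock cells, so a difference that was there before stimulation cannot be told apart from one in the response. The isoforms were delivered by retrovirus, and the labels give no share of cells that carried the vector and no protein level. RNA came from bulk cells, in which fewer cells of a type and less RNA per cell cannot be told apart.

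MALT1 is a scaffold and a protease. After the T cell receptor and CD28 are engaged, MALT1 joins BCL10 in filaments that recruit ubiquitin ligases such as TRAF6 and switch on the IKK kinases, NF-kB and JNK. The protease cuts regulators of the same response, among them A20, CYLD and RelB, and the RNA-binding proteins Regnase-1 and Roquin, which shorten the life of many cytokine and activation mRNAs. MALT1 is made in a pair of splice forms, and isoform A carries the residues of a small exon with a TRAF6-binding motif that isoform B lacks.

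Over the 8 arrays the median raw intensity was 122 to 139, and 10247 to 10826 probes were detected with isoform B, against 10462 to 11012 with mock. Normalised levels correlated across the genes tested, with 1 probe per gene, at r of 0.988 to 0.993 between isoform B arrays and 0.989 to 0.993 between mock arrays. The brightest probe read 34632 to 38404 on arrays from mice 1 and 2, and 41735 to 43630 on arrays from mice 3 and 4. This split crosses the groups and lies between mice, so the mouse block takes up a shift in level that goes with it. The block does not take up an isoform B minus mock difference whose size depends on the pair of mice, which was not tested. All 338 genes called below had the same direction in both pairs of mice, which their selection over the same mice largely fixes. The labelled cell type was in place: 6 of 7 T cell markers were measured (Lck was not in the array's annotation), among them Cd3e and Cd4, 0 passed the threshold, and their summed normalised intensity was 38700 to 40800 with isoform B and 36500 to 39900 with mock. Malt1 itself was read by 1 probe, detected on 0 of 4 isoform B arrays and on 2 of 4 mock arrays, with raw intensities of 120.1 to 137.7 with isoform B and 126.0 to 140.4 with mock. The position of the probe relative to the deletion and to the vector insert was not known, and the sample labels could therefore not be checked with it.

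Isoform B changed a small share of the genes measured, and by similar numbers in both directions. Among 8480 genes, 338 (3.99%) differed between the groups, with 165 (1.95%) higher and 173 (2.04%) lower with isoform B, in limma's moderated test with the mouse as a block and a Benjamini-Hochberg adjusted p under 0.05. The median difference over all genes was -0.0056 on the log2 scale. The shares of 1.95% and 2.04% are the background for every count of list members between isoform B and mock below. In all, 39 of the called genes differed by at least 1 on that scale, 16 higher and 23 lower. Higher genes were led by the plasma cell chaperone gene Mzb1, the cytokine gene Il17f, the TNF family ligand Cd70 and the MHC class II pathway genes H2-Ab1 and Cd74. Below them came the SOCS box adaptor gene Spsb1, the chemokine gene Ccl9 and the cytokine gene Il10. Lower genes were led by the alpha globin gene Hba-a1 and by interferon-stimulated genes such as Rsad2 and Oasl2. Within the called genes, 337 had the same direction in all 4 mice, which the selection also largely fixes. Without the mouse in the model 158 genes passed, 77 higher and 81 lower, and 157 of them were among the 338. With arrays scaled to a common median in place of quantile normalization 190 passed, 67 higher and 123 lower. Without the isoform B array of mouse 3 the count was 187, without the mock array of mouse 2, 3 or 4 it was 225, 202 or 224, and without mouse 1, 2, 3 or 4 altogether it was 192, 166, 153 or 169. Levels below are log2 normalised intensities for mice 1 to 4 in that order, differences are isoform B minus mock on the log2 scale with their standard error (SE) from the fit, n is 4 mice per group throughout, and a refit means 1 of the 12 fits that left out an isoform B array, a mock array or a whole mouse.

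**Figure D1:**
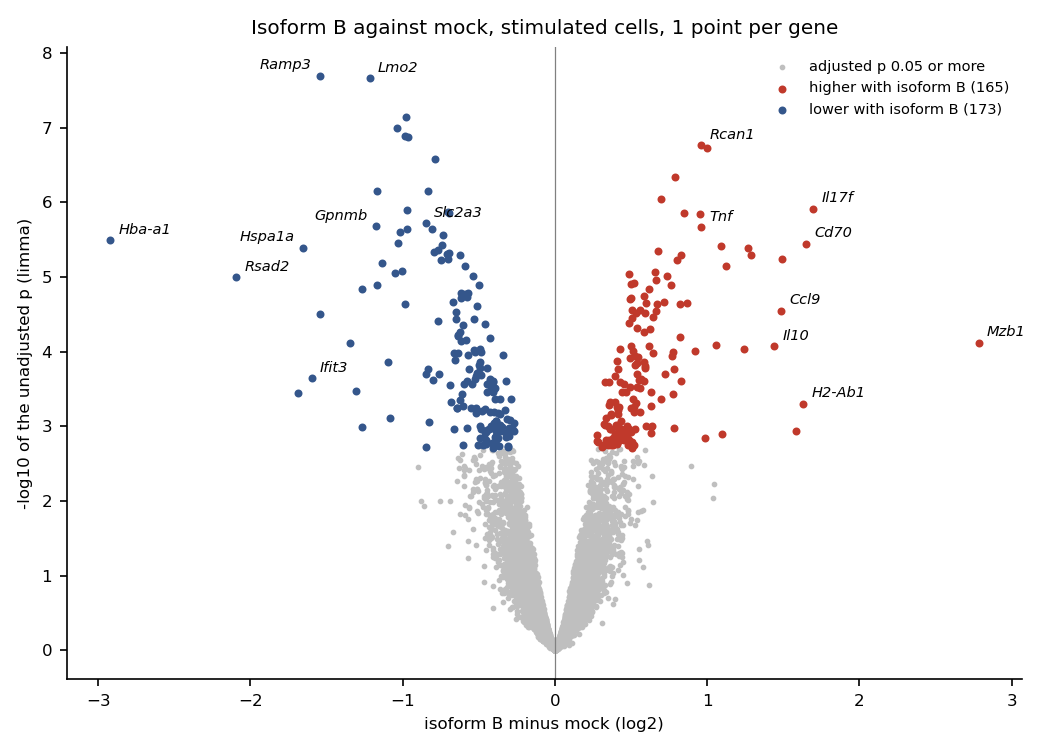
Each point is 1 of 8480 genes. The horizontal axis gives isoform B minus mock in stimulated cells (log2) and the vertical axis minus log10 of limma's unadjusted p, with 165 genes higher with isoform B in red, 173 lower in blue and the rest in grey. Mzb1 lies farthest to the right (2.78) and Hba-a1 farthest to the left (-2.92).

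A few NF-kB genes were higher with isoform B than with mock. The list held NF-kB subunits, the inhibitors that NF-kB induces, and other feedback genes. Of 21 measured members, 3 were higher and 0 lower, beside 1.95% and 2.04% of all genes. The median difference of the list was 0.13, beside -0.0056 over all genes. Nfkbie, which encodes the inhibitor IkB-epsilon, stood at 9.60, 9.48, 9.46 and 9.40 in isoform B cells, against 8.98, 8.87, 8.97 and 9.13 in mock cells. The groups did not overlap, and Nfkbie was 1.41-fold higher with isoform B (0.50 ± 0.07, adjusted p = 0.00179). Ier3, an early response gene that NF-kB induces, stood at 10.16, 10.21, 10.52 and 10.34 with isoform B, against 9.75, 9.81, 9.89 and 9.96 with mock (0.45 ± 0.11, adjusted p = 0.0417). Rela, the p65 subunit, stood at 12.03, 12.10, 12.12 and 12.03 with isoform B, against 11.89, 11.74, 11.69 and 11.57 with mock (0.35 ± 0.08, adjusted p = 0.0342). All 4 isoform B values lay above all 4 mock values for both genes, by less than for Nfkbie. The Nfkbie call was kept in all 12 refits, whereas those of Ier3 and Rela were each lost in 10 of 12, that of Ier3 also without the mouse in the model (adjusted p = 0.119). With median scaling 0 NF-kB members passed, and likewise 0 passed with only the 8 isoform B and mock arrays, so the Nfkbie call was lost in both.

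The promoters of these 3 genes are shown because NF-kB acts on such regions through the kB motif. They run from 250 bases before to 50 after the RefSeq gene start on GRCm38.p6, at chr17:45555450-45555749 on the plus strand for Nfkbie, at chr17:35821463-35821762 on the plus strand for Ier3 and at chr19:5637291-5637590 on the plus strand for Rela. Capitals mark letters that match the kB motif on either strand.
Nfkbie: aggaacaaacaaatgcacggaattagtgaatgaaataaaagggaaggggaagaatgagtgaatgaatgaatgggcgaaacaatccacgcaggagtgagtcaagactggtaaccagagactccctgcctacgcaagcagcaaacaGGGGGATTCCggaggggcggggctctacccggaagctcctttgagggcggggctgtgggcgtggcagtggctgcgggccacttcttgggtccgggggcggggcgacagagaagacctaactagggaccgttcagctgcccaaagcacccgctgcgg
Ier3: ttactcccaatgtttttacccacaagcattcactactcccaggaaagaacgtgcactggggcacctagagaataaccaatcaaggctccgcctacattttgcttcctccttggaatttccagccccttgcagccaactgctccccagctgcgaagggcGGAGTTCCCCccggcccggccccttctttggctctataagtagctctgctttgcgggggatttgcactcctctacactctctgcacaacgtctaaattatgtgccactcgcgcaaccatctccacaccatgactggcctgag
Rela: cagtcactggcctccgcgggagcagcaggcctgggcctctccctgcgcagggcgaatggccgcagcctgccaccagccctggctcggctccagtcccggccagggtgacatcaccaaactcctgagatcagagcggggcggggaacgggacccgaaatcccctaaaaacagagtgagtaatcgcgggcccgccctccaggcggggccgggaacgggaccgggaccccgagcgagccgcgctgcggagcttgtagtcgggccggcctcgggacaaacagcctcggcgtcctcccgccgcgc
The window of Nfkbie held 1 match that begins 106 bases before the gene start and that of Ier3 held 1 that begins 92 bases before it, while the letters of the motif were not found in the window of Rela. Of all 32851 promoter windows of 300 bases, 8.46% held a match, so a match describes the sequence and does not show a site in use.

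Other NF-kB members did not pass, and those given here, like other members below the threshold in later groups, were picked after their values were seen. The activation marker Cd83 differed by 0.58 ± 0.16 (adjusted p = 0.0692), Relb by 0.29 ± 0.09 (adjusted p = 0.116), Nfkb2 by 0.26 ± 0.11 (adjusted p = 0.233) and Rel by 0.21 ± 0.09 (adjusted p = 0.259). The inhibitor genes Nfkbia, which encodes IkB-alpha, and Tnfaip3, which encodes A20, differed by 0.11 ± 0.10 and -0.04 ± 0.12 (adjusted p = 0.652 and 0.906). Icam1, an adhesion molecule gene, and Traf1, a TNF receptor adaptor gene, differed by -0.05 ± 0.14 and -0.09 ± 0.10 (adjusted p = 0.906 and 0.744).

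Isoform A arrays were set beside these values, with the same mock arrays behind both differences. Isoform A minus mock had 11 of the 21 NF-kB members higher and 0 lower, with a list median of 0.44, where 4.42% of all genes were higher and 4.36% lower. Tested directly, isoform B minus isoform A had 0 members higher and 5 lower, beside 0.142% and 0.401% of all genes, and a list median of -0.26. The 5 were Cd83 (-0.94 ± 0.16, adjusted p = 0.0264), Icam1 (-0.82 ± 0.14, adjusted p = 0.0264), Traf1 (-0.57 ± 0.10, adjusted p = 0.0286), Nfkbie (-0.51 ± 0.07, adjusted p = 0.00902) and Tnip1, a partner of A20 (-0.43 ± 0.07, adjusted p = 0.0136). Nfkbie stood at 9.93, 9.99, 10.04 and 10.02 in isoform A cells and so lay above every isoform B value. Of 8480 genes 46 passed between the isoforms (0.542%), but in limma 0 passed when mouse 2 was left out (1161 genes had an unadjusted p under 0.05 with all mice), 1 without mouse 3, 8 without mouse 4, 26 without mouse 1, 8, 9 and 12 without the isoform B array of mouse 2, 3 or 4, and 18 without the mouse in the model.

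**Figure D2:**
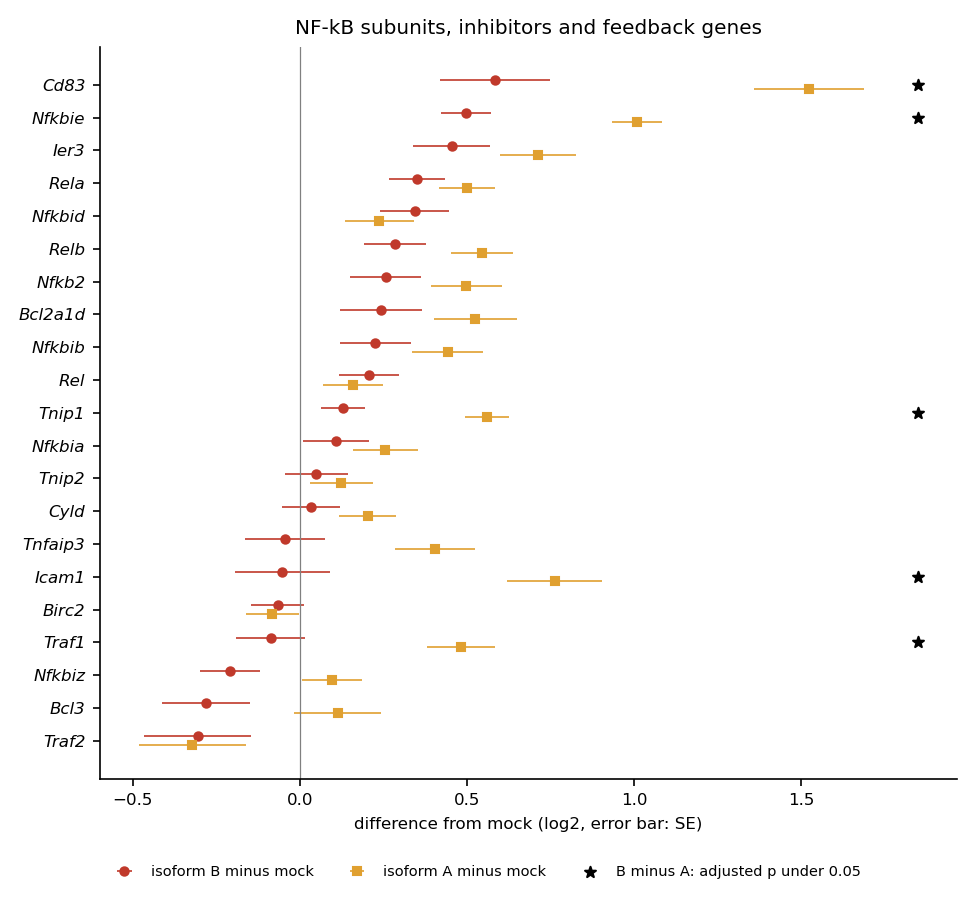
Differences from mock in stimulated cells (log2, horizontal axis) for the 21 measured NF-kB genes, with isoform B minus mock as red circles, isoform A minus mock as yellow squares and bars for the SE of the fit. Both differences use the same 4 mock arrays. Stars mark the 5 genes whose isoform B minus isoform A difference passed the threshold. Nfkbie is at 0.50 with isoform B and 1.01 with isoform A.

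Of 10 measured genes that encode MALT1 protease substrates 0 passed, with a median of 0.05 and Relb as the member with the lowest p. The mRNAs that Regnase-1 and Roquin act on had 2 of 13 members higher and 0 lower, beside 1.95% and 2.04% of all genes, namely Tnf and Ier3, with a median of 0.18. Il2, another such mRNA, was not in the annotation, and Il6 was not detected.

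Several T cell cytokine genes were higher with isoform B. Of 21 measured, 6 were higher and 1 lower, beside 1.95% and 2.04% of all genes, with a median of 0.33. Il17f, which encodes a cytokine of the Th17 class, stood at 7.40, 7.62, 6.54 and 7.15 in isoform B cells, against 5.97, 5.91, 5.03 and 5.03 in mock cells. It was 3.24-fold higher (1.69 ± 0.21, adjusted p = 0.000631), the groups did not overlap, and mouse 3 had the lowest value with isoform B. Its neighbour Il17a stood at 6.90, 7.29, 5.67 and 6.18 with isoform B, against 5.67, 5.71, 4.78 and 4.90 with mock, where it was above background on 2 of 4 arrays. Il17a was 2.37-fold higher (1.24 ± 0.23, adjusted p = 0.00681), the groups overlapped slightly, and each mouse was higher with isoform B. Il10, an anti-inflammatory cytokine gene, stood at 9.92, 10.23, 10.40 and 8.75 with isoform B, against 7.81, 8.15, 9.22 and 8.35 with mock. Il10 was 2.71-fold higher (1.44 ± 0.26, adjusted p = 0.00644), with overlapping groups and differences of 2.11 and 2.08 in mice 1 and 2 but 0.40 in mouse 4.

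Tnf, an inflammatory cytokine gene and a target of both NF-kB and Regnase-1, stood at 14.06, 14.13, 14.37 and 14.13 with isoform B, against 13.36, 13.27, 13.18 and 13.05 with mock. The groups lay well apart, and Tnf was 1.95-fold higher (0.96 ± 0.12, adjusted p = 0.000791). Il13, a type 2 cytokine gene, stood at 10.37, 10.52, 10.15 and 10.27 with isoform B, against 9.95, 9.92, 9.47 and 9.28 with mock (0.67 ± 0.11, adjusted p = 0.00254). Il21, which helps B cells and Th17 cells, stood at 10.17, 9.59, 8.13 and 10.06 with isoform B, against 9.16, 8.14, 6.91 and 9.34 with mock (1.10 ± 0.27, adjusted p = 0.0381). The Il21 groups overlapped widely, and the difference was positive within each mouse. Osm, an interleukin 6 family cytokine gene, was the lower member (-0.58 ± 0.14, adjusted p = 0.0344), and its other probe differed by -0.15. Csf2, Ifng and Il4 differed by 0.40 ± 0.14, 0.33 ± 0.23 and 0.08 ± 0.10 and did not pass (adjusted p = 0.152, 0.516 and 0.735).

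The calls of Il17f, Il17a, Tnf and Il13 were kept in all 12 refits, that of Il10 was lost without mouse 1 or mouse 2 and that of Il21 in 10 of 12. Without the mouse in the model the calls of Il10, Il17a and Il21 were lost (adjusted p = 0.0859, 0.0912 and 0.443), and 3 list members were higher. Between the isoforms 2 of the 21 list members passed, both lower with isoform B, beside 0.401% of all genes. Il23a, the p19 subunit of interleukin 23, differed by -1.82 ± 0.18 (adjusted p = 0.000711) and Il4i1, an amino acid oxidase gene that interleukin 4 induces, by -1.71 ± 0.30 (adjusted p = 0.0282). Their isoform B minus mock values were 0.27 ± 0.18 and 0.58 ± 0.30 (adjusted p = 0.499 and 0.371).

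**Figure D3:**
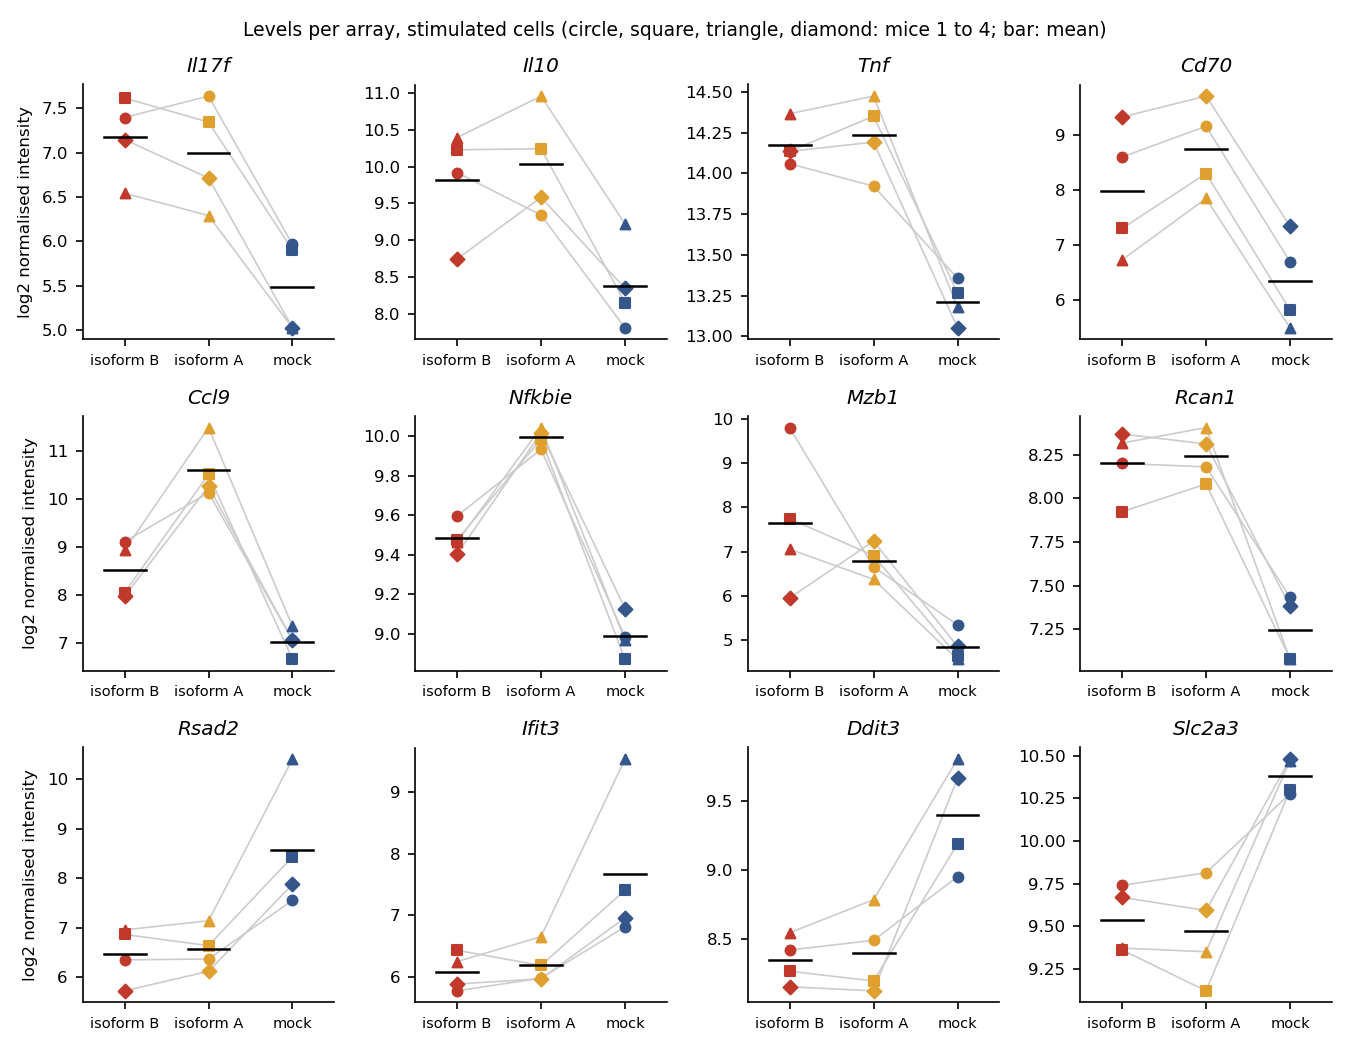
Levels of 12 genes in stimulated cells (log2 normalised intensity) with isoform B, isoform A and mock, 1 symbol shape per mouse, lines joining arrays of the same mouse and bars at the group means. Il17f, Tnf, Nfkbie and Rcan1 are higher with isoform B than with mock in all 4 mice, and Rsad2, Ifit3, Ddit3 and Slc2a3 are lower in all 4. Ccl9 and Nfkbie with isoform B lie between isoform A and mock.

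Chemokine genes held 1 higher and 1 lower member of 9 measured, with a median of 0.35. Ccl9, a chemokine that attracts myeloid cells, stood at 9.11, 8.05, 8.94 and 7.98 with isoform B, against 7.07, 6.67, 7.35 and 7.06 with mock. It was 2.79-fold higher (1.48 ± 0.24, adjusted p = 0.0029), without overlap, and the call was kept in all 12 refits. In isoform A cells Ccl9 stood at 10.13, 10.51, 11.49 and 10.27, above every isoform B value, and isoform B minus isoform A was -2.08 ± 0.24 (adjusted p = 0.00291). Cxcl10, a chemokine gene that interferons induce, was lower with isoform B (-1.08 ± 0.25, adjusted p = 0.0284), was above background on 2 of 4 isoform B arrays and lost its call in 9 of 12 refits and without the mouse in the model (adjusted p = 0.076). Ccl5 differed from mock by 0.03 ± 0.15 (adjusted p = 0.948) and from isoform A by -1.15 ± 0.15 (adjusted p = 0.00627).

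Ligands of the TNF superfamily had 3 of 9 members higher and 0 lower, beside 1.95% and 2.04% of all genes, with a median of 0.33. Cd70, the ligand of the costimulatory receptor CD27, stood at 8.61, 7.31, 6.74 and 9.33 with isoform B, against 6.70, 5.82, 5.50 and 7.35 with mock. Mice differed so widely that the groups overlapped, yet each mouse was higher with isoform B by 1.24 to 1.99, and Cd70 was 3.14-fold higher (1.65 ± 0.22, adjusted p = 0.00104). Cd40lg, through which T cells help B cells, stood at 9.69, 9.74, 9.57 and 9.63 with isoform B, against 9.38, 8.96, 8.996 and 9.03 with mock (0.57 ± 0.11, adjusted p = 0.0126). Tnfsf9, the ligand of 4-1BB, stood at 9.44, 9.80, 9.66 and 9.91 with isoform B, against 9.23, 9.29, 9.14 and 9.10 with mock (0.51 ± 0.09, adjusted p = 0.00704). Cd40lg and Tnfsf9 did not overlap between the groups. Tnfsf4, which encodes OX40 ligand, differed from mock by 0.24 ± 0.13 (adjusted p = 0.389) and from isoform A by -0.69 ± 0.13 (adjusted p = 0.0369). The Cd70 call was kept in all 12 refits but not without the mouse in the model (adjusted p = 0.14), those of Tnfsf9 and Cd40lg were lost in 3 and 5 refits, and with median scaling 1 of the 3 passed.

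Among 24 activation, costimulatory and inhibitory receptor genes 1 was higher and 1 lower, with a median of 0.15. Crtam, an adhesion receptor of activated T cells, stood at 10.18, 10.05, 10.65 and 9.97 with isoform B, against 9.60, 9.52, 10.05 and 9.33 with mock, a steady difference of 0.53 to 0.64 within each mouse (0.59 ± 0.09, adjusted p = 0.00229, and 0.122 without the mouse in the model). The early activation marker Cd69 stood at 12.87, 13.07, 13.11 and 13.31 with isoform B, against 13.40, 13.41, 13.43 and 13.56 with mock (-0.36 ± 0.09, adjusted p = 0.0336), and its call was lost in 11 of 12 refits and without the mouse in the model (adjusted p = 0.0994). The checkpoint genes Lag3, Ctla4 and Pdcd1 differed by 0.51 ± 0.14, 0.55 ± 0.27 and 0.38 ± 0.17, and the costimulatory receptor gene Icos by 0.47 ± 0.15, and none of these 4 passed (adjusted p = 0.0654, 0.332, 0.285 and 0.111).

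Some transcription factor genes of the early response passed, in both directions. Of 19 AP-1, EGR and NR4A genes 1 was higher and 2 were lower, beside 1.95% and 2.04% of all genes, with a median of 0.04. Fosb stood at 9.54, 9.75, 9.66 and 9.89 with isoform B, against 9.25, 9.37, 9.13 and 9.10 with mock (0.50 ± 0.11, adjusted p = 0.023). Jund stood at 7.79, 7.76, 8.16 and 7.76 with isoform B, against 8.48, 8.23, 8.74 and 8.69 with mock (-0.67 ± 0.11, adjusted p = 0.00253). Batf3 was lower by more in mice 3 and 4 (-1.33 and -1.21) than in mice 1 and 2 (-0.20 and -0.64), with an adjusted p = 0.0478 that 10 of 12 refits lost. Jun, Fos, Egr2 and Myc differed by -0.05 ± 0.15, 0.04 ± 0.13, 0.16 ± 0.15 and 0.04 ± 0.08 (adjusted p = 0.914, 0.924, 0.647 and 0.867). The Jund call was kept in all refits and that of Fosb was lost in 8 of 12.

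Rcan1, a calcineurin regulator that NFAT induces, was the called member of 8 NFAT and calcineurin genes, whose median was 0.01. It stood at 8.20, 7.92, 8.32 and 8.37 with isoform B, against 7.43, 7.08, 7.08 and 7.38 with mock. The groups lay apart and Rcan1 was 1.95-fold higher (0.96 ± 0.10, adjusted p = 0.000196, kept in all 12 refits), and in isoform A cells it stood at 8.18, 8.08, 8.41 and 8.31. Of 13 MAPK phosphatase, Sprouty and GADD45 genes 0 passed, and the lowest p was that of Gadd45a (-0.52 ± 0.14, adjusted p = 0.0622). Of 20 interleukin receptor and JAK-STAT genes 2 were higher, the transcription factor gene Stat5a (0.52 ± 0.13, adjusted p = 0.0462) and the feedback inhibitor gene Socs2 (0.33 ± 0.08, adjusted p = 0.0337), and both calls were lost in 10 of 12 refits and without the mouse in the model (adjusted p = 0.0791 and 0.304). Of 10 T helper lineage factors Zbtb32 was higher (0.41 ± 0.10, adjusted p = 0.0452), with a difference of 0.04 in mouse 4, and its call was lost in 9 refits and without the mouse in the model (adjusted p = 0.317). Irf4 and Bcl6, which steer effector and follicular helper fates, differed by 0.18 ± 0.13 and -0.51 ± 0.15 (adjusted p = 0.553 and 0.0924).

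**Figure D4:**
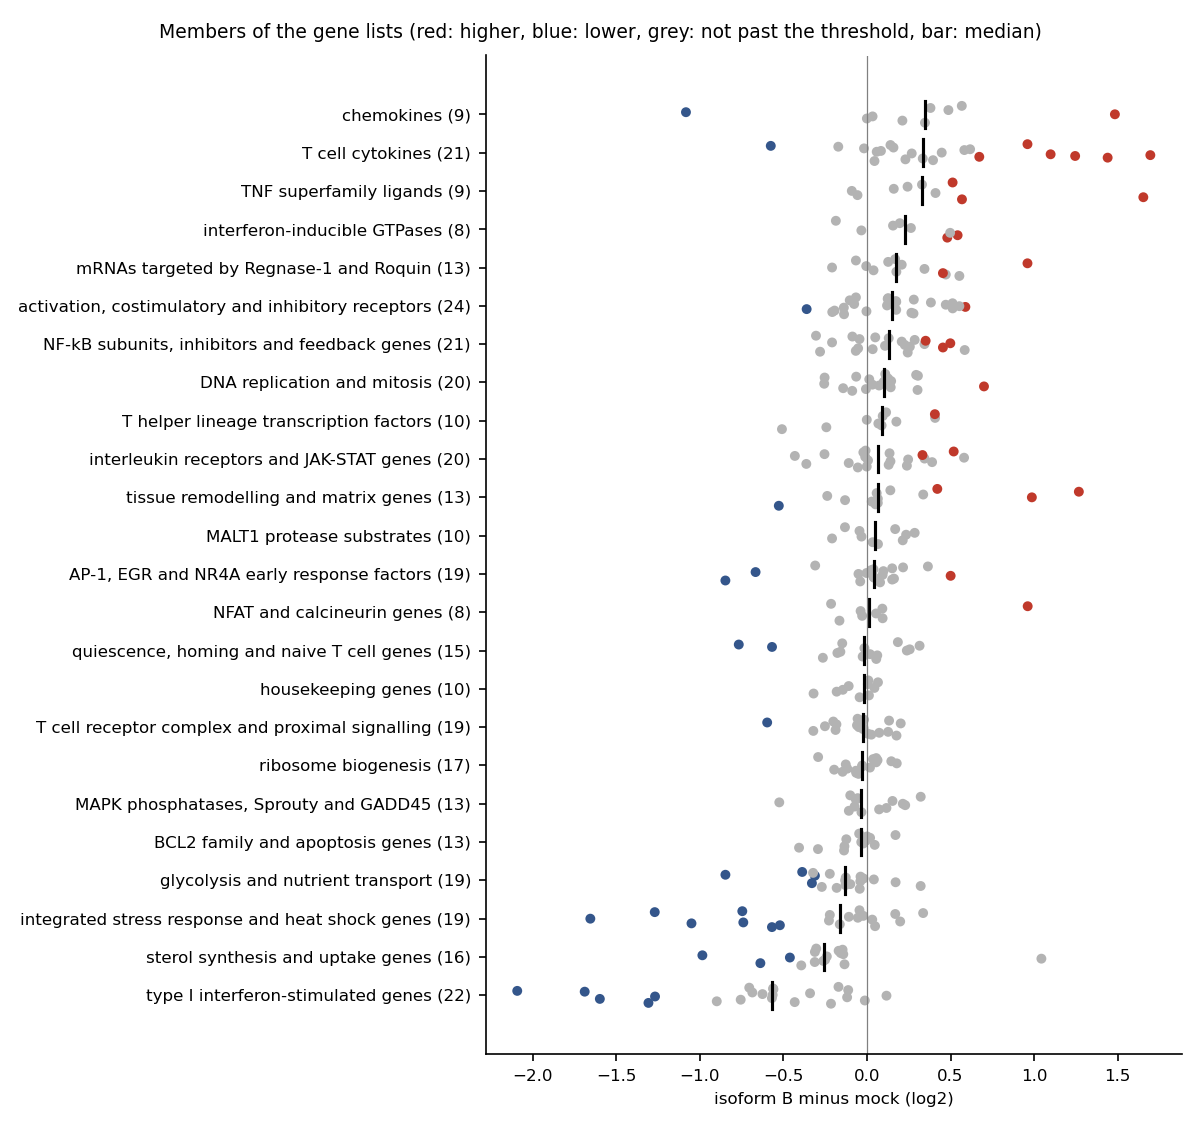
Isoform B minus mock (log2, horizontal axis) for the measured members of 24 gene lists, ordered by the list median, with red points for members past the threshold and higher, blue points for members past the threshold and lower, grey points for the rest and bars at the medians. Numbers of measured members stand in parentheses. The medians run from 0.35 (chemokines) to -0.57 (type I interferon-stimulated genes).

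Several type I interferon-stimulated genes, which encode antiviral proteins, were lower with isoform B. Of 22 measured, 0 were higher and 5 lower, beside 1.95% and 2.04% of all genes, and the list median of -0.57 was the lowest of the 24 pathway lists shown. Rsad2, which encodes viperin, stood at 6.35, 6.86, 6.96 and 5.72 in isoform B cells, against 7.55, 8.43, 10.40 and 7.87 in mock cells. It was 4.26-fold lower (-2.09 ± 0.31, adjusted p = 0.00155), without overlap, and the mock array of mouse 3 stood far above the others. Ifit3, an inhibitor of viral translation, stood at 5.77, 6.43, 6.25 and 5.88 with isoform B, against 6.81, 7.41, 9.54 and 6.96 with mock (-1.60 ± 0.32, adjusted p = 0.0125). The other Ifit3 probes differed by -0.72 and -0.55, and the call was lost when the mean of a gene's probes was used. Isg15, a ubiquitin-like modifier gene, stood at 9.25, 9.74, 8.87 and 8.01 with isoform B, against 9.59, 10.21, 11.39 and 9.74 with mock (-1.27 ± 0.30, adjusted p = 0.0344). Mouse 3 again had the highest mock values, the Isg15 groups overlapped, and the differences of Isg15 in mice 1 and 2 were -0.34 and -0.47. Oasl2 and the nucleotide kinase gene Cmpk2 differed by -1.69 ± 0.36 and -1.31 ± 0.27 (adjusted p = 0.016 and 0.0157), with another Oasl2 probe at -0.33 and Cmpk2 above background on 3 of 4 isoform B arrays. The Oasl2 call was also lost when the mean of a gene's probes was used.

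The list median within each mouse was -0.11, -0.34, -1.44 and -0.59 for mice 1 to 4. Without the mock array of mouse 3 it was -0.30 and 4 members were lower, and without mouse 3 altogether it was -0.29 and 3 were lower. Across the refits 1 to 8 members passed, the lowest number without the isoform B array of mouse 3, and 2 passed without the mouse in the model, where the calls of Ifit3, Oasl2 and Isg15 were lost (adjusted p = 0.0719, 0.0593 and 0.0829). The Rsad2 call was kept in every refit. In isoform A cells Rsad2 stood at 6.37, 6.64, 7.14 and 6.12 and Ifit3 at 5.98, 6.18, 6.65 and 5.97, and 0 members passed between the isoforms. Erythroid Hba-a1 was also highest on the mock array of mouse 3, and its part in these differences was not tested.

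Promoters of the lower genes Rsad2 and Ifit3 are shown because interferon-activated factors bind the ISRE motif. These genes were chosen after their values were seen. The windows lie at chr12:26456403-26456702 on the minus strand for Rsad2 and at chr19:34583279-34583578 on the plus strand for Ifit3 (RefSeq, GRCm38.p6), and capitals mark matches to GAAANNGAAA on either strand.
Rsad2: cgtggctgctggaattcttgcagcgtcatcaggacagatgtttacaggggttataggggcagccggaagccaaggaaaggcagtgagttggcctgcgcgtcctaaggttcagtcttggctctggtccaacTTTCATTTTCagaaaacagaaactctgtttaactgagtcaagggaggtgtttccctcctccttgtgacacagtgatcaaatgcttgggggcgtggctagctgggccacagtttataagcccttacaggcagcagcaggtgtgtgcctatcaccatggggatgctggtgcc
Ifit3: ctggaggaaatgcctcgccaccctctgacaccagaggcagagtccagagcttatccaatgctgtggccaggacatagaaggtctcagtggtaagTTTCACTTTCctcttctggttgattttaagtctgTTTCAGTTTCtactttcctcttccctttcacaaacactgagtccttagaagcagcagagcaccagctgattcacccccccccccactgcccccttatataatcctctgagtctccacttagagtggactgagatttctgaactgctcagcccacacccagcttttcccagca
Rsad2 held 1 match, which begins 120 bases before the gene start, and Ifit3 held 2, which begin 156 and 122 bases before it. The windows of Cmpk2 and Oasl2 did not hold these letters. Of all 32851 windows 3.44% held a match.

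**Figure D5:**
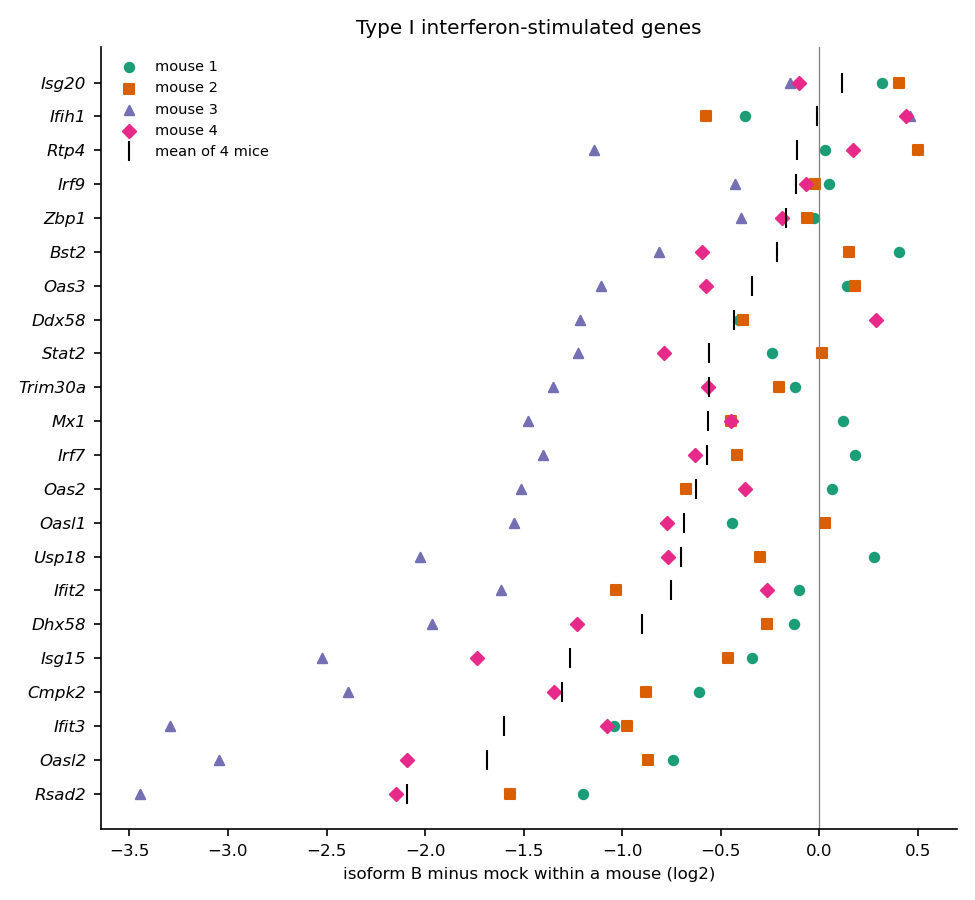
Isoform B minus mock within each mouse (log2, horizontal axis) for 22 type I interferon-stimulated genes, with 1 symbol per mouse and a bar at the mean of 4 mice. Mouse 3 lies lowest for 21 of the 22 genes, for instance at -3.45 for Rsad2 and -2.53 for Isg15, where mouse 1 has -1.20 and -0.34.

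Interferon-inducible GTPases, which interferon gamma controls more than type I interferon does, had members past the threshold only in the other direction. Of 8 measured, 2 were higher and 0 lower, beside 1.95% and 2.04% of all genes, with a median of 0.23. Gbp3 stood at 12.44, 12.43, 12.65 and 12.48 with isoform B, against 12.07, 11.83, 12.07 and 11.86 with mock (0.54 ± 0.10, adjusted p = 0.00887). Gbp2 stood at 14.82, 14.70, 14.76 and 14.47 with isoform B, against 14.42, 14.13, 14.13 and 14.15 with mock (0.48 ± 0.12, adjusted p = 0.0417). Neither gene overlapped between the groups, with a narrower gap for Gbp2 than for Gbp3. The call of Gbp2 was lost in 9 of 12 refits and that of Gbp3 without mouse 2 or mouse 3. With median scaling 0 of the 8 passed, and without the mouse in the model Gbp3 did not (adjusted p = 0.0619).

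Several stress genes were lower with isoform B. Of 19 genes of the integrated stress response and heat shock 0 were higher and 7 lower, beside 1.95% and 2.04% of all genes, with a median of -0.16. Ddit3, which encodes the stress factor CHOP, stood at 8.42, 8.27, 8.55 and 8.16 in isoform B cells, against 8.95, 9.19, 9.80 and 9.66 in mock cells (-1.05 ± 0.15, adjusted p = 0.00148). Slc7a3, an arginine transporter gene, stood at 5.89, 5.86, 5.92 and 5.60 with isoform B, against 6.69, 6.72, 7.88 and 7.05 with mock (-1.27 ± 0.19, adjusted p = 0.00196). Both genes were free of overlap, and the isoform B arrays varied less than the mock arrays. Hspa1a, which encodes the inducible HSP70 chaperone, stood at 6.55, 6.87, 5.66 and 6.34 in mock cells and was detected on 0 of 4 isoform B arrays, which makes it at least 2.56-fold lower (adjusted p = 0.00104), where the mock mean of its measured level is set against the lowest level that counts as detected. Trib3, Ddit4, Asns and Cebpb were lower (-0.75 ± 0.10, -0.74 ± 0.10, -0.57 ± 0.11 and -0.52 ± 0.12, adjusted p = 0.00112, 0.00104, 0.00748 and 0.0231). They encode a pseudokinase that CHOP induces, an inhibitor of mTORC1, asparagine synthetase and a C/EBP transcription factor. Atf4 itself and the endoplasmic reticulum chaperone gene Hspa5 differed by 0.05 ± 0.09 and -0.05 ± 0.12 (adjusted p = 0.849 and 0.886). The calls of Ddit3, Slc7a3, Hspa1a, Trib3 and Ddit4 were kept in all 12 refits, though Trib3 missed the threshold without the mouse in the model (adjusted p = 0.0539).

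Glucose handling genes were higher in 0 and lower in 4 of 19 members, beside 1.95% and 2.04% of all genes, with a median of -0.13. Slc2a3, which encodes the glucose transporter GLUT3, stood at 9.74, 9.36, 9.37 and 9.67 with isoform B, against 10.28, 10.30, 10.47 and 10.48 with mock. It was 1.80-fold lower (-0.85 ± 0.11, adjusted p = 0.000791), without overlap and in all 12 refits. Slc2a1, Pfkl and Tpi1, for GLUT1 and a pair of glycolytic enzymes, were lower (-0.31 ± 0.07, -0.33 ± 0.07 and -0.39 ± 0.10, adjusted p = 0.0291, 0.0238 and 0.0397). Those 3 calls were each lost in 10 of 12 refits and without the mouse in the model (adjusted p = 0.109, 0.293 and 0.141), and another Pfkl probe differed by 0.19. The calls of Pfkl and Tpi1 were also lost when the mean of a gene's probes was used. Gapdh differed by -0.18 ± 0.08 (adjusted p = 0.235).

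Sterol synthesis genes were higher in 0 and lower in 3 of 16 members, beside 1.95% and 2.04% of all genes, with a median of -0.26. Mvd, which encodes mevalonate diphosphate decarboxylase, stood at 5.95, 5.79, 5.68 and 5.27 with isoform B, against 6.37, 6.65, 6.87 and 6.73 with mock (-0.98 ± 0.16, adjusted p = 0.00254). Fdps, for farnesyl diphosphate synthase, stood at 10.88, 10.76, 10.98 and 10.44 with isoform B, against 11.12, 11.34, 11.69 and 11.45 with mock (-0.64 ± 0.11, adjusted p = 0.00521). Insig1, a brake on the SREBP pathway, was lower (-0.46 ± 0.10, adjusted p = 0.0231), a call lost in 10 of 12 refits and without the mouse in the model (adjusted p = 0.0681). The Insig1 call was also lost when the mean of a gene's probes was used. Mouse 1 had the smallest difference in all 3 genes, and the Mvd call was kept in every refit while that of Fdps was lost without mouse 3. Idi2, an isopentenyl diphosphate isomerase gene, differed by 1.04 ± 0.32 and did not pass (adjusted p = 0.0971).

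Other groups held few changes. Of 19 T cell receptor and proximal signalling genes the phosphatase gene Ptpn6, which encodes SHP-1, was lower (-0.60 ± 0.12, adjusted p = 0.0133, lost in 6 of 12 refits). Of 15 quiescence, homing and naive T cell genes 2 were lower. Tsc22d3, the glucocorticoid-induced leucine zipper gene, stood at 6.19, 6.31, 6.09 and 6.06 with isoform B, against 7.02, 6.84, 6.96 and 6.90 with mock (-0.77 ± 0.13, adjusted p = 0.00352). Satb1, a chromatin organiser, stood at 12.29, 12.46, 12.25 and 12.21 with isoform B, against 12.75, 12.84, 12.96 and 12.94 with mock (-0.57 ± 0.09, adjusted p = 0.00216). Both were free of overlap and kept in all 12 refits. The other probe of Tsc22d3 differed by -0.19, and the Tsc22d3 call was lost when the mean of a gene's probes was used (adjusted p = 0.0604).

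Of 20 DNA replication and mitosis genes Cdc20, an activator of the anaphase-promoting complex, was higher. It stood at 10.84, 10.63, 10.91 and 10.56 with isoform B, against 10.21, 9.99, 9.88 and 10.05 with mock (0.70 ± 0.08, adjusted p = 0.000584). Members that passed were 0 of 13 BCL2 family and apoptosis genes, 0 of 17 ribosome biogenesis genes and 0 of 10 housekeeping genes, with medians of -0.03, -0.03 and -0.02. Their lowest p values were those of Bbc3 (-0.41 ± 0.13, adjusted p = 0.118), Rrs1 (-0.29 ± 0.10, adjusted p = 0.137) and Gapdh. The survival gene Bcl2l1, which encodes BCL-xL, differed from mock by 0.05 ± 0.11 (adjusted p = 0.894) and from isoform A by -0.63 ± 0.11 (adjusted p = 0.0264).

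Of 13 tissue remodelling and matrix genes 3 were higher and 1 lower, beside 1.95% and 2.04% of all genes. Timp1, an inhibitor of matrix metalloproteinases, stood at 6.37, 5.93, 5.76 and 6.69 with isoform B, against 4.98, 5.11, 4.88 and 4.71 with mock, where it was above background on 2 of 4 arrays (1.27 ± 0.17, adjusted p = 0.00104). Mmp13, a collagenase gene, stood at 6.70, 7.78, 7.96 and 6.94 with isoform B, against 6.20, 6.59, 6.497 and 6.14 with mock (0.99 ± 0.25, adjusted p = 0.0409). The other Mmp13 probe differed by 0.24, and the call was lost when the mean of a gene's probes was used. Timp1 was kept in all 12 refits, whereas Mmp13 was lost in 11 and without the mouse in the model (adjusted p = 0.249). The intermediate filament gene Vim was higher (0.42 ± 0.09, adjusted p = 0.0226) and the metalloproteinase gene Adam8 lower (-0.53 ± 0.10, adjusted p = 0.0072), calls lost in 9 and 3 refits and without the mouse in the model (adjusted p = 0.14 and 0.162).

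Markers of other cell types were measured beside these groups. Of 7 measured B cell markers 4 were higher with isoform B. Mzb1 stood at 9.80, 7.74, 7.05 and 5.95 with isoform B, against 5.34, 4.64, 4.57 and 4.86 with mock, where it was above background on 1 of 4 arrays. It was 6.89-fold higher (2.78 ± 0.50, adjusted p = 0.00604), with differences of 4.46, 3.10, 2.49 and 1.09 in mice 1 to 4. The MHC class II invariant chain gene Cd74 stood at 10.44, 9.19, 9.002 and 7.89 with isoform B, against 7.53, 7.66, 7.75 and 7.23 with mock (1.59 ± 0.39, adjusted p = 0.0356). H2-Ab1, a class II beta chain, stood at 7.82, 7.28, 6.79 and 5.85 with isoform B, against 5.32, 5.56, 5.37 and 4.95 with mock (1.63 ± 0.36, adjusted p = 0.0209). H2-Aa, a class II alpha chain, was not well above background on any mock array and above it on 2 of 4 isoform B arrays, at least 1.12-fold higher (adjusted p = 0.0344). For all of these the isoform B array of mouse 1 was the highest and that of mouse 4 the lowest.

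The summed intensity of the 7 markers was 353 to 2650 with isoform B, 612 to 1080 with isoform A and 193 to 279 with mock, and the list median within mice 1 to 4 was 2.498, 1.40, 0.54 and 0.34. The defining B cell genes Cd79a, Pax5 and Blk were not detected, and Cd79b and Ms4a1 differed by 0.18 ± 0.16 and -0.05 ± 0.13 (adjusted p = 0.634 and 0.892). Without the isoform B array of mouse 1 the list median was 0.58 and 1 marker passed, and without mouse 3 altogether 0 passed. The calls of Cd74 and H2-Aa were lost in 10 of 12 refits and that of H2-Ab1 in 8, while that of Mzb1 was lost without mouse 2 or mouse 3. The part of B cells in these values was not tested.

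The 2 measured members of the erythroid and granulocyte list moved the other way. Hba-a1, an alpha globin gene, stood at 4.82, 5.53, 5.77 and 4.91 with isoform B, where it was above background on 2 of 4 arrays, against 6.32, 8.75, 9.87 and 7.77 with mock. It was 7.58-fold lower (-2.92 ± 0.39, adjusted p = 0.00101), without overlap and in all 12 refits, and mouse 3 had both the highest mock value and the largest difference. Car2, which encodes carbonic anhydrase and was the other measured member, was lower (-0.83 ± 0.16, adjusted p = 0.01, and 0.0574 without the mouse in the model). In isoform A cells Car2 was above background on 0 of 4 unstimulated and 4 of 4 stimulated arrays. Hba-a1 was above background there on 4 of 4 arrays in either state. The summed intensity of both was 40.5 to 77.4 with isoform B, 52.7 to 111 with isoform A and 162 to 1020 with mock, and Alas2, Hbb-bt, S100a8, S100a9, Mpo and Elane were not detected. Of 8 CD8 and cytotoxic markers Ctsw, a cathepsin gene, was higher (0.49 ± 0.07, adjusted p = 0.00149, and 0.203 without the mouse in the model). Cd8a was not detected, while the other CD8 chain gene, Cd8b1, was measured and did not pass. The summed intensity of the 8 markers was 17900 to 23900 with isoform B and 14100 to 22300 with mock. Macrophage and dendritic cell markers had 0 of 2 measured members called, Fcer1g at -0.16 ± 0.14 and Ctss at -0.02 ± 0.11 (adjusted p = 0.638 and 0.954), with Itgam, Adgre1 and Lyz2 not detected and a summed intensity of 644 to 1270 with isoform B and 626 to 1400 with mock. Regulatory T cell markers had 0 of 4 called, Ctla4 among them, with a summed intensity of 2870 to 3030 with isoform B and 2730 to 3480 with mock. The part of these cells in the differences above was not tested.

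The remaining large differences fell outside the lists. Spsb1, a SOCS box adaptor gene, stood at 7.47, 7.26, 7.499 and 7.96 with isoform B, against 6.69, 6.24, 5.24 and 6.05 with mock (1.49 ± 0.21, adjusted p = 0.00112). Gja1, which encodes the gap junction protein connexin 43, stood at 10.07, 10.49, 9.70 and 9.94 with isoform B, against 9.05, 9.52, 8.46 and 8.81 with mock (1.09 ± 0.15, adjusted p = 0.00104). Both lay clear of the mock values and kept their calls in all 12 refits. Itgae, the CD103 integrin chain gene, stood at 7.40, 8.54, 9.67 and 8.76 with isoform B, against 7.08, 7.32, 8.08 and 7.40 with mock (1.13 ± 0.16, adjusted p = 0.00126, and 0.299 without the mouse in the model). The Itgae difference was 0.32 in mouse 1 and over 1 in the other mice, and its other probes ranged from 0.03 to 1.22. Tpbg, a surface glycoprotein gene, was higher by 1.29 ± 0.18 (adjusted p = 0.00106) and was above background on 1 of 4 mock arrays.

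Among lower genes Ramp3, which encodes a partner of the calcitonin receptor family, stood at 6.91, 7.09, 6.22 and 7.01 with isoform B, against 8.24, 8.47, 8.27 and 8.42 with mock. It was 2.91-fold lower (-1.54 ± 0.13, adjusted p = 9.25e-05), well apart in every mouse. Lmo2, a haematopoietic transcription cofactor gene, stood at 5.17, 6.04, 5.49 and 5.42 with isoform B, against 6.39, 7.16, 7.06 and 6.36 with mock (-1.22 ± 0.11, adjusted p = 9.25e-05). Gcnt2, a glycosyltransferase gene, stood at 5.54, 5.25, 5.16 and 5.77 with isoform B, against 6.54, 6.19, 6.82 and 6.85 with mock (-1.17 ± 0.13, adjusted p = 0.000501). All 3 were free of overlap and kept in every refit. Gimap7, an immune GTPase gene, had differences of -0.49 and -0.73 in mice 1 and 2 and of -1.77 and -2.40 in mice 3 and 4 (-1.35 ± 0.24, adjusted p = 0.00604), and its call was lost without mouse 3 or mouse 4. Tnfrsf11b, which encodes the decoy receptor osteoprotegerin, was lower (-1.54 ± 0.25, adjusted p = 0.00302) with 2 of 4 isoform B arrays above background, a call lost without mouse 3. Gpnmb and Gpr146, a transmembrane glycoprotein gene and an orphan receptor gene, differed by -1.18 ± 0.15 and -1.17 ± 0.18 (adjusted p = 0.000791 and 0.00179), with other probes at -0.19 and -0.35.

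Of the genes that differed from mock, 7 also differed between the isoforms in the direct test, and the 6 with the largest such difference are described. Beside Ccl9 and Nfkbie, Stat5a stood at 9.01, 8.79, 8.84 and 9.02 with isoform B and at 9.68, 9.76, 10.07 and 9.86 with isoform A, against 7.90, 8.49, 8.68 and 8.52 with mock. Isoform B minus isoform A was -0.93 ± 0.13 for Stat5a (adjusted p = 0.00893), and the 3 groups did not overlap. Sox21, a SOX transcription factor gene, stood at 8.70, 9.11, 8.97 and 9.72 with isoform B and at 8.45, 8.35, 7.51 and 8.13 with isoform A, against 8.14, 8.43, 7.497 and 8.20 with mock. It was higher with isoform B than with either of the others, by 1.01 ± 0.19 over isoform A (adjusted p = 0.0354) and by 1.06 ± 0.19 over mock (adjusted p = 0.00632). Gpt2, an alanine aminotransferase gene, was lower with isoform B than with isoform A (-0.61 ± 0.10, adjusted p = 0.0234) and than with mock (-0.77 ± 0.10, adjusted p = 0.00106). Slc46a3, a transporter gene, stood at 6.40, 6.24, 6.56 and 6.42 with isoform B and at 5.94, 5.89, 5.87 and 6.10 with isoform A, against 6.76, 6.95, 7.06 and 7.14 with mock, so that isoform B lay between (0.45 ± 0.09 over isoform A, adjusted p = 0.0417, and -0.57 ± 0.09 from mock, adjusted p = 0.0023). Over 23 alternatives these isoform B minus isoform A calls were lost in 2 (Ccl9), 6 (Nfkbie), 6 (Stat5a), 10 (Sox21), 10 (Gpt2) and 16 (Slc46a3), and 0 changed direction.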

How the data were processed

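RNA of 16 samples (4 groups of 4 mice) was hybridised to Illumina mouse bead arrays, 1 array per sample. The deposited table used here holds non-normalised probe intensities and, for every probe on every array, the p-value of detection, which the authors exported with GenomeStudio 2011.1 per the submitters' processing notes. A second deposited table, which the authors had processed by a method not given in the sources used here, served as an alternative. Its values were treated as intensities and taken to log2 here after an offset of 16 was added.

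Intensities were background-corrected with normexp from the detection p-values (offset 16), quantile-normalised and taken to log2 in limma 3.58.1 (R 4.3.3). Of 25697 probes, 12344 had a detection p under 0.05 on at least 4 of 16 arrays. The brightest probe per gene gave 8480 genes, and 740 kept probes without a gene name were left out. Group means with the mouse as a block were fitted over all 16 arrays (9 residual degrees of freedom), and p-values were adjusted by Benjamini-Hochberg over all 8480 genes. The mouse is given by the labels. Within the 4 mice, deviations of the isoform B and mock arrays from their group means correlated at 0.258 to 0.417. Between mice they correlated at -0.296 to 0.106. The mean of -0.11 between mice largely follows from taking deviations from group means, so it is no separate baseline. The script was tested on simulated data. No 2 arrays held identical values. The number of arrays limits the precision.

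Named genes were the 15 largest called differences in each direction with the same sign in all 4 mice, up to 4 called members per list (or the lowest p), the 6 largest of those also called between isoforms, called markers of other cells, and Malt1. Some items are not reported here. Members and lists were chosen with earlier results of these data known. A probe dim on every array of a group gives only a bound. Alternatives covered the mouse block, the arrays fitted, background, scaling, offset, filter, probe choice, array weights and left-out arrays or mice.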

Additional observations from a re-analysis of the deposited data

Results flagged for a closer look

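Of 160 groups of 4 arrays looked at over 80 named genes, 7 held 1 array far from the other 3, where chance flags about 1 in 20 groups. In isoform B cells these were Batf3 in mouse 1 (log2 level 7.165, others 6.366 to 6.437), Insig1 in mouse 2 (7.845, others 7.402 to 7.472), Jund in mouse 3 (8.161, others 7.761 to 7.792) and Rrs1 in mouse 4 (6.794, others 6.413 to 6.473). In mock cells they were, all in mouse 1, Cd40lg (9.377, others 8.962 to 9.032), Gbp2 (14.42, others 14.13 to 14.15) and Tpbg (5.415, others 4.712 to 4.807).

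In the direct test of isoform B minus isoform A, with limma's adjusted p, 7 of the genes that differed from mock also differed between the isoforms, and the 6 with the largest such difference are given. The log2 differences were -2.08 for Ccl9, -0.928 for Stat5a, -0.613 for Gpt2 and -0.511 for Nfkbie, all lower with isoform B, and 1.01 for Sox21 and 0.45 for Slc46a3, both higher with isoform B. Each had the same sign under all 23 alternatives.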

How the results depend on the processing

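Of 71 named genes past the threshold, 35 kept their call in all 12 refits that left out an array or a mouse. Over the 12 other alternatives 27 kept it wherever the gene was tested, and 0 reversed. With detection required on all 8 arrays, 60 of the 71 were tested. Gpr146, Hba-a1, Hspa1a, Timp1 and Tpbg, which are among the 27, were not tested there. Without the replicate block, 43 of the 71 were kept and 158 genes passed between isoform B and mock (77 higher, 81 lower), 18 between isoform B and isoform A and 412 between isoform A and mock. With only the 8 isoform B and mock arrays (3 residual degrees of freedom) 129 passed, 66 higher and 63 lower, and 40 named calls were kept. Median scaling gave 190 calls, of which 67 were higher (35.3%), 19 between the isoforms and 393 between isoform A and mock, and shifted the median of all genes to -0.0437. Between the isoforms 3 genes passed with only the 12 stimulated arrays, 105 with no background correction, 20 in the authors' table and 88 with an offset of 50. Leaving out arrays or mice gave 153 to 321 calls between isoform B and mock (70 to 150 higher, 83 to 171 lower), 0 to 44 between the isoforms and 239 to 724 between isoform A and mock. Fcer1g, which did not pass, ranged from -0.28 to 0.0071 when arrays or mice were left out, and its sign changed without mouse 4. Causes of these shifts were not tested. Fits that left out arrays also held fewer arrays, and the part of that smaller number was not tested. Genes near background, such as Il17a and Mzb1 in mock cells, have the least certain folds.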
